A study of Mus musculus with 6 samples.

Results

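The mitochondrial ribosomal protein genes encode the nuclear-made proteins of the ribosome that works inside mitochondria. Members were the protein-coding genes whose GENCODE M21 symbol starts with Mrpl or Mrps followed by a number, with pseudogenes left out, which gave 78 of the 53379 genes counted. Of these, 51 belong to the large subunit, 26 to the small subunit, and Mrps36, although named as a small-subunit protein, is now known as a component of the 2-oxoglutarate dehydrogenase complex. Mrps18a and Mrps30 are counted with the large subunit, where their proteins sit in spite of their names. RNA was sequenced from regulatory T cells (Treg cells, the CD4 T cells that restrain immune responses and are defined by the transcription factor Foxp3), purified by flow cytometry from C57BL/6 mice aged 3 months. The 3 WT libraries came from Foxp3YFP-Cre x Junb+/+ mice and the 3 KO libraries from Foxp3YFP-Cre x JunbFlox/Flox mice. Both groups therefore carried the Cre recombinase and yellow fluorescent protein made from the Foxp3 locus, which limits deletion to cells that have switched on Foxp3. The comparison asks how these genes are expressed in Treg cells whose Junb gene is targeted for deletion. JunB pairs with Fos and Batf proteins to form AP-1 transcription factors.

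Mitochondria keep a small genome that encodes core subunits of the respiratory chain and of ATP synthase, together with the 2 RNAs of their own ribosome. Every protein of that ribosome is encoded in the nucleus, made in the cytosol and imported, and the finished particle sits at the inner membrane and inserts its products there. Part of its proteins have counterparts in bacterial ribosomes and the rest are found in mitochondria only. In T cells, mitochondrial translation is needed for respiration and is known to support activation and Treg cell function.

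The promoters of these genes are shown first because some features there, which the naming rule did not use, were more frequent than in other tested genes. Most members lacked each of these features. Of the 78 members, 28 (35.9%) had a protein-coding partner on the opposite strand whose start lay within 1000 bp, head to head with their own. The share was 16.6% among 5299 other tested protein-coding genes at the abundance of the members, meaning within their 5th to 95th percentile of mean level (13.3 to 67.8 CPM, read counts scaled to the library size), and 9.03% among all 21787 other protein-coding genes. In 11 members the 2 starts lay within 100 bp, and in 6 the transcripts of the pair overlapped at their starts. The stretches below fill the gap between such a pair of starts or lie just upstream of a start, outside annotated exons. They come from RefSeq on GRCm38.p6 and read 5′ to 3′ along the strand of the named gene. Capitals mark a motif, on either strand. The stretches printed are examples, and most such stretches of the members hold none of the motifs counted. Mrpl43 (chr19:45006443-45006557, minus strand) shares its gap with Twnk, the mitochondrial DNA helicase, and holds 2 ETS motifs. Mrps27 (chr13:99344706-99344785, plus strand) faces Ptcd2, and Mrps18c (chr5:100798599-100798626, plus strand) faces Helq, a DNA helicase. Mrps11 (chr7:78783090-78783118, plus strand) faces another member, Mrpl46, and their gap holds none of the motifs. Mrpl45 (chr11:97315566-97315715, plus strand) and Mrpl12 (chr11:120484463-120484612, plus strand) hold NRF1 motifs, and Mrps15 (chr4:126046775-126046924, plus strand) holds no motif and is the member with a lower level in KO libraries at an unadjusted p under 0.05.
Mrpl43: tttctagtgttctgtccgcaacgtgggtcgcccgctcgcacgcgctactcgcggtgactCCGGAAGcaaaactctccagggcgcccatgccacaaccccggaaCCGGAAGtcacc
Mrps27: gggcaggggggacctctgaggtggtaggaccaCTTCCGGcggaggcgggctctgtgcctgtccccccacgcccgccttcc
Mrps18c: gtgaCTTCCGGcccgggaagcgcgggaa
Mrps11: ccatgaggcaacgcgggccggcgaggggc
Mrpl45: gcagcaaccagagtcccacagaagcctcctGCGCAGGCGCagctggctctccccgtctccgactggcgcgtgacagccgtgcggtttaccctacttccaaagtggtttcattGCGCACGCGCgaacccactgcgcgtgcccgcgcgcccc
Mrpl12: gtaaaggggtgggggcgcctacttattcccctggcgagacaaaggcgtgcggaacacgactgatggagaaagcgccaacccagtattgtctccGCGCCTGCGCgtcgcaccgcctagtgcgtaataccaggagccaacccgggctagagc
Mrps15: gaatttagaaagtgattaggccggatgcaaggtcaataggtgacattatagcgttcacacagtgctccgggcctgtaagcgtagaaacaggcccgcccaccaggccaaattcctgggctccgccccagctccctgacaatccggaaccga

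Motifs of 6 transcription factor families were counted in RefSeq windows of 300 bases, from 250 bases before to 50 after each start, on both strands. The table held 75 windows for 69 members and none for the other 9. The ETS motif CCGGAAG, bound by factors such as GABP, was in 26 member windows (34.7%), against 17.1% of 12660 windows of other tested protein-coding genes and 8.86% of all 32851 windows. NRF1, a factor known to act on nuclear genes for mitochondrial proteins, had its motif (capitals in the Mrpl45 and Mrpl12 stretches above) in 17.3% of member windows, against 9.54% of windows of other tested genes and 4.603% of all windows. The YY1 motif AAGATGGC was in 16.0% of member windows, 4.21% of windows of other tested genes and 2.75% of all windows. The other motifs were no more frequent in members than in other tested genes. The E-box CACGTG, bound by MYC, was in 9.33% against 9.68%, with 7.15% of all windows. The AP-1 motif TGANTCA, bound by JunB with its partners, was in 3 member windows, 4.0% against 5.16% and 7.81% of all windows, and the cAMP response element TGACGTCA was in 2.67% against 2.88%, with 1.79% of all windows. Median GC content was 58.7% in member windows, 60.0% in those of other tested genes and 52.7% in all windows. A window could count for several motifs, and a match describes letters, not binding. Overlapping windows of a gene were counted separately, so a single site could count more than once, as the E-box of Mrpl2 did.

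**Figure D1:**
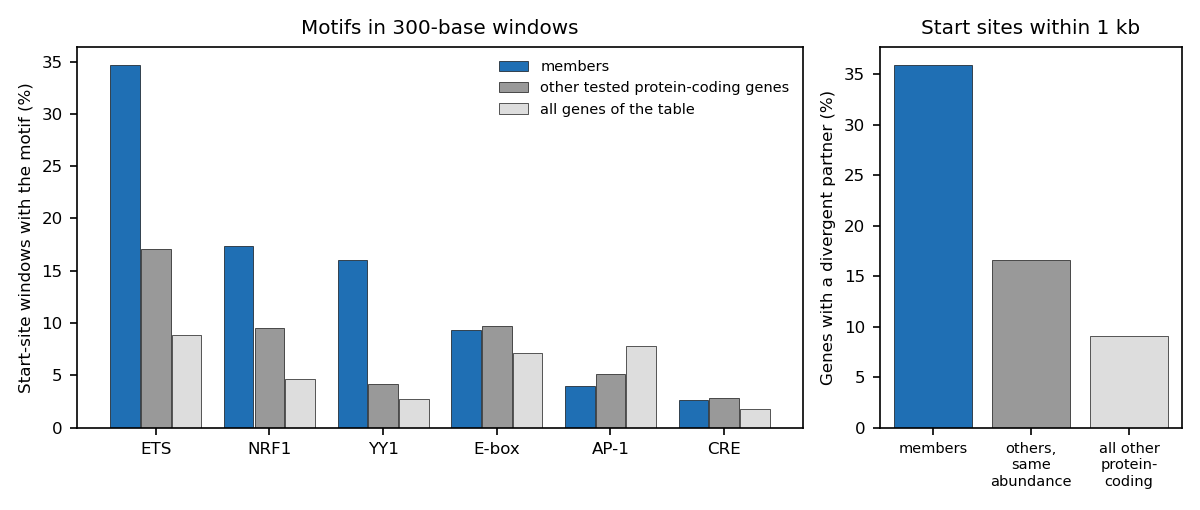
Left, percent of 300-base start-site windows that hold each motif, for the 75 member windows, 12660 windows of other tested protein-coding genes and all 32851 windows. Right, percent of genes with a divergent protein-coding start within 1000 bp. Members stand at 34.7% for ETS and at 35.9% for divergent starts, and the bars have no error since they count all windows or genes.

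The libraries held between 33784183 and 41231173 counts each. Junb itself was at 87.1, 77.5 and 89.5 CPM in the WT libraries and at 57.1, 57.3 and 49.6 CPM in the KO libraries, with no overlap. Its level in KO was 0.645 of that in WT (log2 difference -0.63 ± 0.13 SE, edgeR, unadjusted p = 0.00163, adjusted p = 0.9999), and DESeq2 called it (adjusted p = 0.00783). Most of the transcript level thus remained in the libraries labelled KO, which are called KO here by their label. All 7 Treg markers checked, Foxp3 among them, were present in every library, with a summed level of 2019.9 to 2380.1 CPM in WT and 936 to 2175.4 CPM in KO, lowest in KO replicate 1. All 7 had a lower mean in KO (median log2 difference -0.49), with 0 at an unadjusted p under 0.05. Of 7 markers of T cells in general, 6 had a lower mean in KO too (median -0.17), again with 0 at that level. The 7 markers of conventional CD4 T cells, the cells nearest to Treg cells, all had a higher mean in KO (median 0.32), and summed to 952 to 1150.4 CPM in WT and 1061.0 to 1705.1 CPM in KO. Of these, Il7r (log2 difference 0.68, edgeR, unadjusted p = 0.00985) and Dapl1 (1.19, unadjusted p = 0.0188) were at an unadjusted p under 0.05. Of all genes tested, 1.4% were higher in KO at that level. Il7r and Cd40lg showed no overlap, as did 3.68% of all genes tested in that direction, and Dapl1 overlapped. The part of these shifts in the values of the members was not tested. Markers of other cell types were present too. The 7 B cell markers summed to 1933.8 to 8438.9 CPM in WT and 2796.8 to 6296.1 CPM in KO, and none was at 0 in any library. The 8 myeloid markers summed to 140 to 1060.0 CPM in WT and 437 to 1159.4 CPM in KO, with Cd14 at 0 in WT replicate 3. The mean was higher in KO for 6 of the 7 B cell markers (median log2 difference 0.39) and all 8 myeloid markers (0.71). It was also higher for 7 of 8 markers of CD8 T and NK cells (0.56) and all 5 erythroid markers (1.54). No marker of these lists was at an unadjusted p under 0.05, and their part in the values of the members was not tested. Fewer cells of a type and less RNA per cell cannot be told apart in such bulk libraries. Whether each library is a separate animal is not stated in the labels, and the p-values therefore cover the spread among the libraries at hand, some of which may be technical.

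All 78 members were counted in every library, with a lowest count of 33, and all passed the filter on low counts. Levels between genes were compared as CPM per kilobase of the principal transcript. On that scale the median member stood at 21.9 in WT, the members spanned 97.0-fold, and 38 of the 78 lay within 2-fold of the median. The median was 24.6 over large-subunit and 19.5 over small-subunit members. The highest levels per kilobase in WT belonged to small proteins of both subunits. Mrpl52, a large-subunit protein found in mitochondria only, stood at 160.6 ± 39.7 (SD, n = 3), Mrpl33 at 148.8 ± 32.3 and the small-subunit protein Mrps21 at 134 ± 12.5. Whether these 3 differed from each other was not tested. The next of the 4 highest members of each subunit were Mrpl18 at 72.1 ± 9.11, Mrpl42 at 70.2 ± 10.4, Mrps18c at 67.5 ± 10.1, Mrps34 at 65.1 ± 12.6 and Mrps33 at 60.4 ± 5.19. Differences between them were not tested. The values of Mrps18c and Mrps34 are uncertain because their exons overlap those of other genes, in part on the same strand. Mrpl54 and Mrpl30, between Mrps18c and Mrps34 in the order of all members, stood at 66.0 and 65.9. Mrpl12, the stalk protein that the ribosome carries in several copies, ranked 22nd of the 78 at 38.3.

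At the low end, Mrps30 stood at 1.66 ± 0.67 CPM per kilobase in WT, Mrps26 at 3.10 ± 0.93, Mrpl3, a core protein near the peptidyl transferase centre, at 4.52 ± 1.27, and Mrps35 at 4.63 ± 1.31. Mrpl3 and Mrps35 did not differ beyond their spread. These 4 have long principal transcripts, between 3319 and 4278 bp, and the length chosen sets much of the order. With the length of all annotated exons, Mrpl33 went from 148.8 to 9.71 CPM per kilobase and Mrpl42 from 70.2 to 12.7. The order in WT and KO was nearly the same, with a Spearman correlation of 0.99 across the 78 members, which share the same libraries and lengths.

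**Figure D2:**
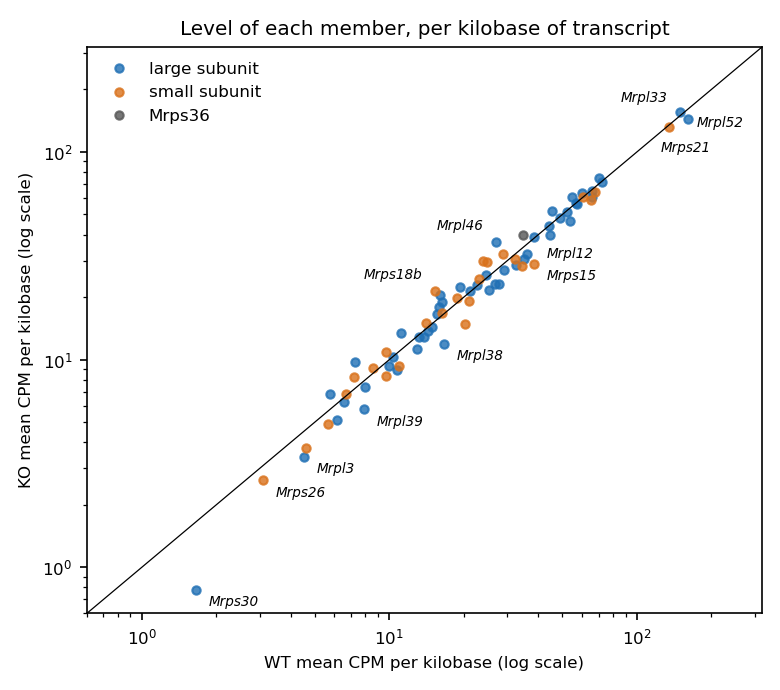
Mean CPM per kilobase of principal transcript in WT (x axis) and KO (y axis), both on log scales, 1 point per member, with the line of equal levels. Points run along the line from Mrps30 at the lower left to Mrpl52 at the upper right, and Mrps30 is the point farthest from it.

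Between genotypes, the level of the mitochondrial ribosomal protein genes differed little. No member passed an adjusted p of 0.05 in edgeR's quasi-likelihood test with Benjamini-Hochberg adjustment, nor did any of the 20475 genes tested (0.0%). DESeq2 called 46 of the 22157 genes it gave an adjusted p (0.208%), and 0 of the members. At an unadjusted p under 0.05 there were 2 members higher in KO (2.56%, against 1.4% of all genes tested) and 1 lower (1.28%, against 1.48%). In 46 of the 78 members (59.0%) the KO mean was lower, against 49.1% of all genes tested. The median log2 difference was -0.03, the quartiles of the members were -0.20 and 0.09, and the median over all genes was 0.01. Large-subunit genes had a median of -0.03 with 33 of 51 lower in KO, and small-subunit genes a median of -0.01 with 13 of 26 lower. The 44 members classed here as having a bacterial counterpart had a median of -0.02. The 31 classed as found in mitochondria only, Mrps28 among them, had a median of -0.06. These medians depend on the classes assigned.

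The precision of these values was higher than for most genes. The 95% interval of the difference lay within 2-fold in either direction for 70 of the 78 members (89.7%). That share was 79.6% for 6396 other genes at the abundance of the members, and 44.5% for all genes tested. Their median SD within a genotype was 0.24 on the log2 scale, against 0.28 for other genes at that abundance. The median size of the difference, 0.15 log2 in either direction, was 0.15 for those other genes too. Mrps30 was the single member whose log2 difference went beyond 0.5 in size.

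**Figure D3:**
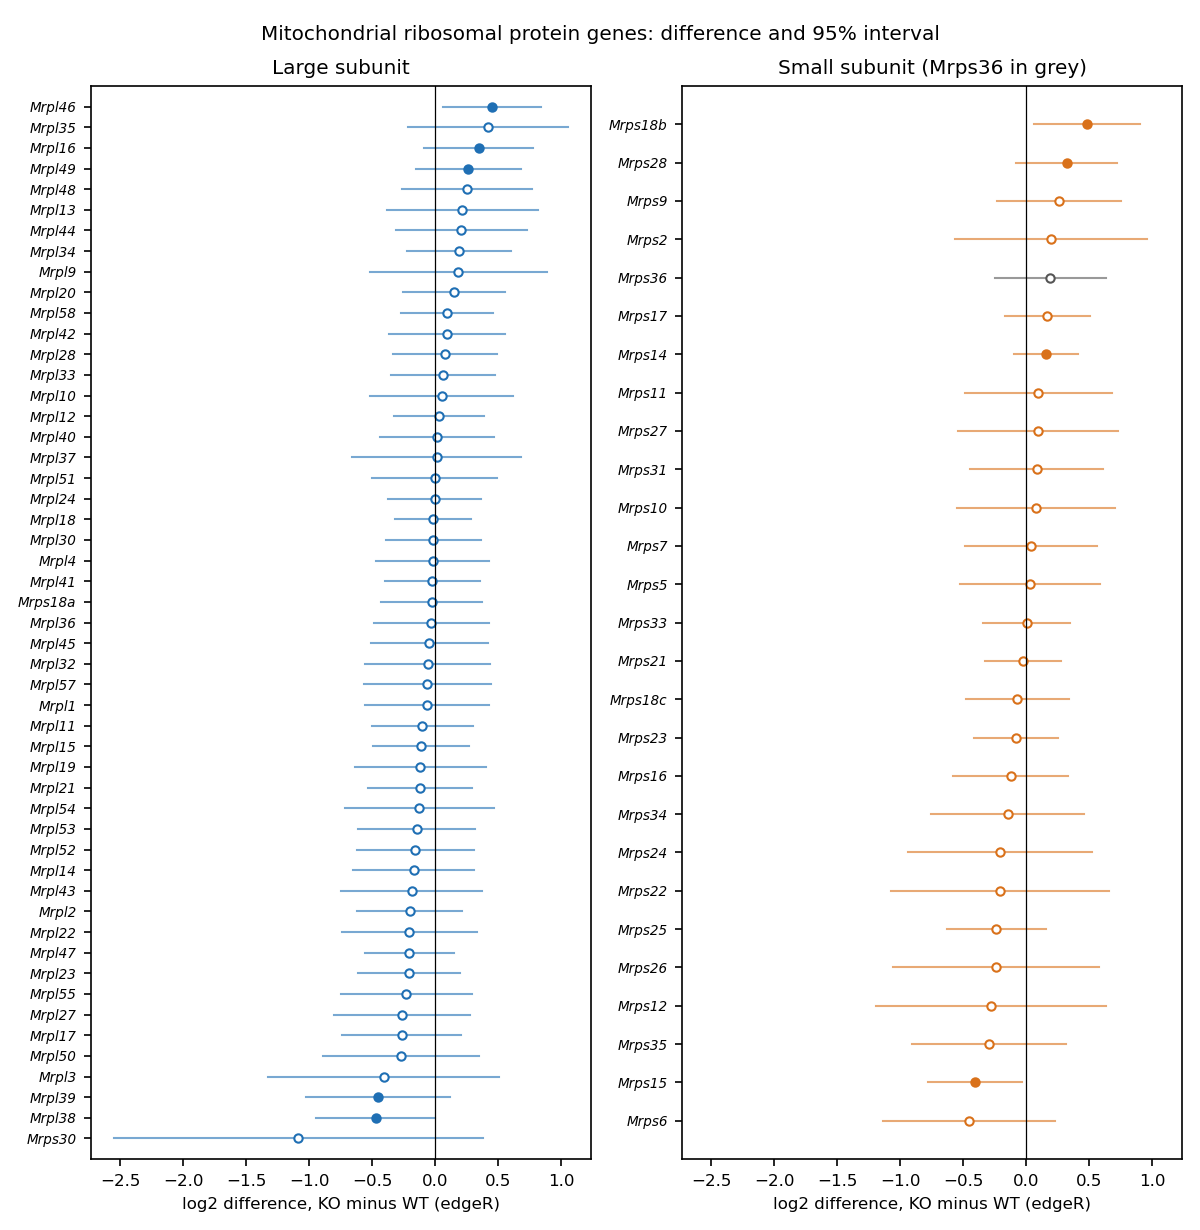
Log2 difference between KO and WT for each member (x axis, points) with its 95% interval from edgeR (lines), large-subunit members on the left and the others on the right. Filled points are the 9 members whose 3 WT and 3 KO libraries do not overlap, and 70 of the 78 intervals stay within 1 log2 unit of 0.

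In 9 members the libraries of the genotypes did not overlap in CPM. They were 6 with all KO libraries above all WT libraries (7.69% of the members, against 3.68% of all genes tested and 3.38% of other genes at their abundance) and 3 with all KO libraries below (3.85%, against 4.07% and 4.19%). No adjusted p was under 0.05 for any of them.

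Among the 3 lower members, Mrps15 (ENSMUSG00000028861.13, chr4:126046925-126055532, GRCm38), which binds the RNA of the small subunit, was measured at 33.3, 33.4 and 41.1 CPM in WT and at 28.0, 26.9 and 26.4 CPM in KO. The KO libraries lay close together and below every WT library, and WT replicate 3 was the highest. The log2 difference was -0.41 ± 0.16 SE (edgeR, unadjusted p = 0.0365, adjusted p = 0.9999). The unadjusted p was 0.106 without WT replicate 3, and was over 0.05 without any other single library except WT replicate 2. Mrpl38 (ENSMUSG00000020775.13, chr11:116131817-116138868), a protein of the central protuberance of the large subunit found in mitochondria only, was measured at 23.7, 24.2 and 22.3 CPM in WT and at 18.05, 13.6 and 19.0 CPM in KO. The WT libraries were close together, and KO replicate 2 was the lowest of the 6. Its log2 difference was -0.47 ± 0.20 SE (unadjusted p = 0.0505, adjusted p = 0.9999). The unadjusted p was 0.0286 with DESeq2, 0.0443 with limma-voom and 0.0788 with edgeR and the replicate block. Mrpl39 (chr16:84717576-84735742), related in sequence to threonyl-tRNA synthetases, was at 18.5, 17.4 and 18.5 CPM in WT and at 13.2, 9.996 and 16.5 CPM in KO. Here too KO replicate 2 was the lowest and the WT libraries were close together, and the log2 difference was -0.45 ± 0.24 SE (unadjusted p = 0.103). Within the 2 sets of libraries that share a number in the names of their tables, A (WT replicates 1 and 2, KO replicate 2) and B (the others), the log2 differences were -0.31 and -0.59 for Mrps15, -0.80 and -0.26 for Mrpl38 and -0.81 and -0.32 for Mrpl39, where the lack of overlap fixes the sign.

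Among the 6 higher members, Mrps18b (ENSMUSG00000024436.16, chr17:35910379-35916389), 1 of 3 mammalian relatives of the bacterial protein S18, was measured at 16.2, 15.6 and 17.5 CPM in WT and at 23.8, 20.96 and 24.1 CPM in KO. Both genotypes were tight and the gap between them was wider than the range of either. The log2 difference was 0.48 ± 0.18 SE (edgeR, unadjusted p = 0.0294, adjusted p = 0.9999). An antisense gene, Gm16279, overlaps 638 bp of its exons (30.5%), and no source used here says whether strand was used in counting, so their reads cannot be told apart. The other S18 relatives differed less, with log2 differences of -0.03 ± 0.17 SE for Mrps18a, which sits in the large subunit, and -0.07 ± 0.17 SE for Mrps18c. Whether Mrps18b differed from them was not tested. Gm43511 overlaps 250 bp (23.2%) of the exons of Mrps18c on the same strand, so the value of Mrps18c is uncertain.

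Mrpl46 (ENSMUSG00000030612.6, chr7:78775236-78783531), a large-subunit protein found in mitochondria only, was measured at 30.5, 28.2 and 33.005 CPM in WT and at 46.3, 35.3 and 43.6 CPM in KO. KO replicate 2 came closest to the WT libraries. The log2 difference was 0.45 ± 0.16 SE (edgeR, unadjusted p = 0.0290, adjusted p = 0.9999). Its head-to-head partner Mrps11, whose start lies 30 bp away across the short gap printed above, was at 24.0, 18.7 and 30.0 CPM in WT and at 31.7, 21.2 and 24.9 CPM in KO. Those libraries overlapped widely, with a log2 difference of 0.10 ± 0.25 SE. The exons of the pair share 173 bp, and reads there cannot be assigned to either without strand. Blocking on the replicate number gave unadjusted p-values of 0.0713 for Mrps15, 0.0545 for Mrps18b and 0.0368 for Mrpl46. For Mrpl46 and Mrps18b alike, the unadjusted p was over 0.05 without KO replicate 1, KO replicate 3, WT replicate 1 or WT replicate 2.

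The remaining 4 had smaller differences. Mrpl16, which helps to form the tRNA-binding side of the large subunit, was at 20.8, 18.3 and 16.8 CPM in WT and at 22.0, 23.0 and 26.03 CPM in KO (log2 difference 0.35 ± 0.18 SE, edgeR, unadjusted p = 0.0996). Mrps28 was at 17.7, 18.7 and 19.5 CPM in WT and at 24.9, 21.8 and 23.2 CPM in KO (0.32 ± 0.17 SE, unadjusted p = 0.101). For Mrpl16 the gap between the genotypes was narrow, and for Mrps28 it was wider than the range of the WT libraries. Mrpl49 was at 19.4, 20.6 and 19.1 CPM in WT and at 23.2, 21.2 and 26.5 CPM in KO (0.26 ± 0.18 SE, unadjusted p = 0.177). Mrps14, in the head of the small subunit, was the most abundant of the 9, at 87.6, 82.3 and 90.0 CPM in WT and at 97.3, 99.0 and 93.6 CPM in KO (0.16 ± 0.11 SE, unadjusted p = 0.182). Within sets A and B the log2 differences were 0.39 and 0.44 for Mrps18b and 0.27 and 0.44 for Mrpl46, again with a sign that the lack of overlap fixes.

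**Figure D4:**
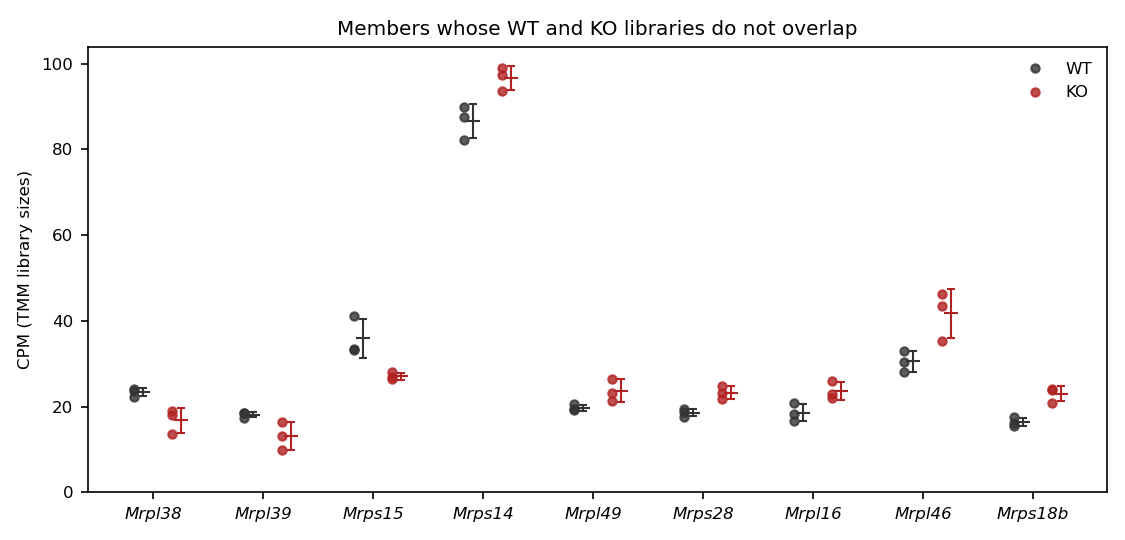
CPM of the 9 members whose WT (black) and KO (red) libraries do not overlap, 1 point per library, with the mean and SD of 3 libraries beside them. The lower members Mrpl38, Mrpl39 and Mrps15 stand at the left and the 6 higher ones at the right, in order of log2 difference from -0.47 for Mrpl38 to 0.48 for Mrps18b.

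Mrps30, the member with the largest difference and the lowest level, showed wide spread. It was at 6.997, 2.95 and 6.54 CPM in WT and at 3.05, 3.83 and 0.89 CPM in KO. WT replicate 2 lay among the KO libraries and KO replicate 3 was far below the rest. The log2 difference was -1.09 ± 0.62 SE (95% interval -2.55 to 0.38, unadjusted p = 0.123). It was -0.68 without KO replicate 3, and it was -0.23 within set A and -1.67 within set B. Its exons overlap 623 bp of B430218F22Rik on the opposite strand.

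For the members that form the working parts of the large subunit, no difference between genotypes was shown. At the stalk, where translation factors dock, Mrpl12 was at 46.3, 45.3 and 59.5 CPM in WT and at 50.8, 52.7 and 50.7 CPM in KO, so that the KO libraries lay inside the WT range (log2 difference 0.03 ± 0.15 SE). Its anchor Mrpl10 differed by 0.05 ± 0.24 and Mrpl11, at the base of the stalk, by -0.10 ± 0.17 on the log2 scale. Around the exit tunnel, Mrpl23 differed by -0.21 ± 0.17 and Mrpl45, which tethers the ribosome to the inner membrane, by -0.04 ± 0.20. A processed pseudogene, Mrpl23-ps1, was counted at up to 59.1 CPM, above the 43.3 CPM that Mrpl23 reached, so the value of Mrpl23 is uncertain. Mrpl44, which has the fold of a double-stranded RNA nuclease, differed by 0.21 ± 0.22 and Mrpl58, a release factor relative built into the ribosome, by 0.09 ± 0.15. Among the most abundant per kilobase, the differences were -0.16 ± 0.20 for Mrpl52, 0.06 ± 0.18 for Mrpl33, -0.01 ± 0.13 for Mrpl18 and 0.09 ± 0.19 for Mrpl42. Unadjusted p-values of these 11 genes lay above 0.25, and Mrpl3 had a difference of -0.41 ± 0.39. The edgeR intervals of the 11 stayed within 2-fold in either direction, from -0.32 to 0.29 for Mrpl18 and from -0.52 to 0.62 for Mrpl10. For Mrpl3 the interval was wider, from -1.32 to 0.51. Smaller differences are thus not excluded.

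For the further small-subunit members chosen for their place or level, no difference between genotypes was shown either, and some intervals were wide. The edgeR intervals reached beyond 2-fold for Mrps12 (-1.19 to 0.63), Mrps22 (-1.07 to 0.65) and Mrps26 (-1.06 to 0.57). Similar levels are thus not shown for these genes. Mrps12, part of the decoding centre, ranged from 20.7 to 41.9 CPM in WT and from 13.9 to 33.2 CPM in KO, so the genotypes overlapped over most of their range (log2 difference -0.28 ± 0.38 SE). Mrps22 differed by -0.21 ± 0.36, Mrps27, a member of the pentatricopeptide repeat family that binds RNA, by 0.09 ± 0.27, and Mrps34 by -0.15 ± 0.26. Mrps34 shares most of its exon length with Mapk8ip3 (63.4%) on the opposite strand. Nme3 overlaps 763 bp of its exons (37.0%) on the same strand, where strand would not separate the reads. The value of Mrps34 is uncertain for these reasons. Mrps21 differed by -0.03 ± 0.13, Mrps33 by 0.00 ± 0.15, Mrps26 by -0.24 ± 0.35 and Mrps35 by -0.29 ± 0.26. Mrps36, the dehydrogenase component, was at 26.2, 22.8 and 24.0 CPM in WT and at 31.2, 29.3 and 22.7 CPM in KO. Its KO replicate 3 lay just below the lowest WT library and the others above the highest, and the log2 difference was 0.19 ± 0.19 SE (edgeR, unadjusted p = 0.339). Processed pseudogenes named Mrps36-ps1 and Mrps36-ps2 were counted at up to 17.98 and 15.5 CPM, so the value of Mrps36 is uncertain.

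Head-to-head partners did not share a direction with the members more often than not. Of the 28 members with such a partner, 26 had a partner that was tested, and the log2 differences had the same sign in 13, Mrpl46 and Mrps11 being counted once from each side. The median distance between starts was 122 bp. Mrpl43 and Twnk, which share the ETS motifs printed above, differed by -0.19 and -0.41, Mrps18c and Helq by -0.07 and -0.41, and Mrps27 and Ptcd2 by 0.09 and -0.05. Twnk overlaps 507 bp (33.4%) of the exons of Mrpl43, and without strand their reads there cannot be told apart. Besides Mrpl46 seen from Mrps11, the partner at an unadjusted p under 0.05 was Cyb5rl (log2 difference 0.92, unadjusted p = 0.0419), next to Mrpl37 at 0.01.

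The summed level of the members varied more between libraries of a genotype than between the genotypes. Summed over the 78 genes, the level was 2731.3, 2617.2 and 3161.9 CPM in WT and 2957.9, 2668.4 and 2777.2 CPM in KO, with means of 2836.8 ± 287.2 and 2801.2 ± 146.2 (SD, n = 3). The KO libraries lay within the WT range. WT replicate 3 was the highest of all 6 libraries for 31 members and lay above the mean of the other WT libraries for 64, by a median of 0.23 log2. WT replicate 2 and KO replicate 2 were each the lowest for 20 members. The mean log2(CPM + 0.5) of the members was 4.97, 4.89 and 5.14 in WT and 5.05, 4.88 and 4.95 in KO. The cytosolic ribosomal proteins were likewise highest in WT replicate 3 and KO replicate 1 and lowest in replicate 2 of both genotypes, at 8.99, 8.82 and 9.30 in WT and 9.23, 8.91 and 9.10 in KO. Nuclear subunits of the respiratory chain were at 6.22, 6.17 and 6.48 in WT and 6.42, 6.23 and 6.25 in KO, again highest in WT replicate 3 and KO replicate 1. Other genes at the abundance of the members were at 4.78 to 4.85 in WT and 4.82 to 4.86 in KO.

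**Figure D5:**
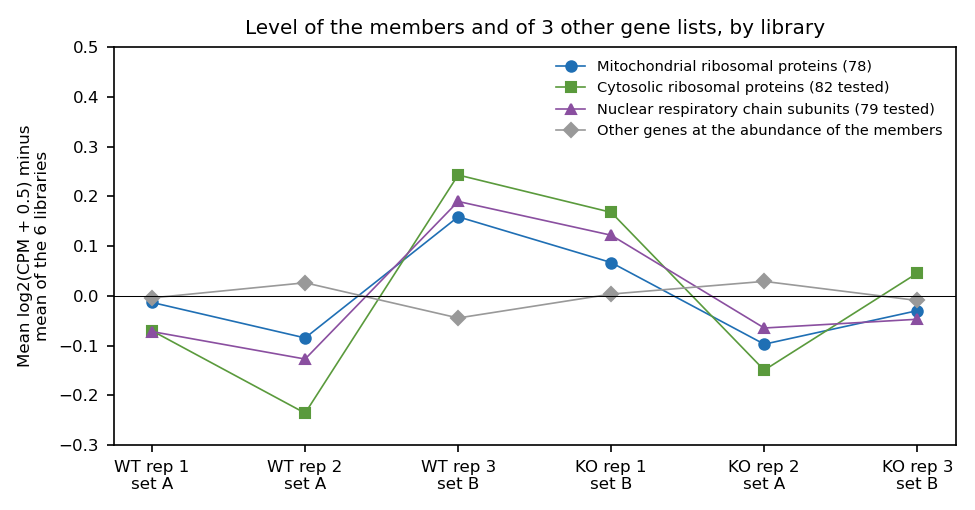
Mean log2(CPM + 0.5) of 4 groups of genes in each library, minus the mean of the 6 libraries (y axis), 1 point per library, joined by lines only to guide the eye, with the set (A or B) of each library under its name. The members, the cytosolic ribosomal proteins and the respiratory chain subunits are highest in WT replicate 3 and next in KO replicate 1, and lowest in WT replicate 2 or KO replicate 2.

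Several other measures also varied between these libraries, not all in the order of the members, and their part in the result was not tested. WT replicate 3 and KO replicate 1, the highest libraries, both belong to set B. The sources used here do not say what the number in the names of the tables stands for. Within set A the KO level was lower for 45 members (median log2 difference -0.04, all genes 0.01), and within set B for 56 (median -0.15, all genes -0.02). Without WT replicate 3 the KO mean was lower for 29 of the 78 in place of 46, with a median of 0.05. The 5 erythroid markers, haemoglobin genes among them, had a mean log2(CPM + 0.5) of 4.05, 5.49 and 8.25 in WT and 9.72, 7.65 and 3.36 in KO. The B cell markers were at 5.42, 7.78 and 5.03 in WT and 7.16, 6.90 and 6.65 in KO, and the myeloid markers at 4.30, 6.04 and 3.13 in WT and 5.79, 5.89 and 4.84 in KO, both lowest in WT replicate 3. Treg markers were at 7.93, 7.75 and 7.90 in WT and 6.71, 7.46 and 7.85 in KO, and without KO replicate 1 the members' median was -0.08 with 52 lower.

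Genes that build and run the mitochondrial ribosome were read from lists by role, and none passed an adjusted p of 0.05. Of 5 further ribosomal proteins with other names, such as the GTP-binding Dap3, 3 were lower in KO and 2 higher, and 0 had an unadjusted p under 0.05. Of 15 translation factors, 8 were lower, with 0 at that level. In Tufm (log2 difference -0.28, edgeR, unadjusted p = 0.0847) every KO library was below every WT library, as in 4.07% of all genes tested. Of 26 assembly and RNA modification factors, 14 were lower, and the 2 with an unadjusted p under 0.05 were both higher in KO, where 1.4% of all genes tested were higher and 1.48% lower at that level. Mtg2, a GTPase of large-subunit assembly, was at 26.9, 23.2 and 18.6 CPM in WT and at 32.4, 34.4 and 39.6 CPM in KO (log2 difference 0.63 ± 0.19 SE, edgeR, unadjusted p = 0.0141, adjusted p = 0.9999). Nsun4, which methylates the RNA of the small subunit, was at 12.7, 16.997 and 18.04 CPM in WT and at 20.6, 25.4 and 22.8 CPM in KO (0.53 ± 0.21 SE, unadjusted p = 0.0437, adjusted p = 0.9999). In both genes, and in Fastkd2 (log2 difference 0.41, unadjusted p = 0.0768), every KO library was above every WT library, and in Trub2 (-0.40, unadjusted p = 0.0570) every one was below, where 3.68% and 4.07% of all genes tested did so. Of 20 mitochondrial aminoacyl-tRNA synthetases and related enzymes, 10 were lower, and of 8 genes of mitochondrial DNA expression, 3, with 0 at an unadjusted p under 0.05 in either list. Of 9 nuclear regulators, 8 were tested and 5 were lower, again with 0 at that level. In Myc (log2 difference 0.28, edgeR, unadjusted p = 0.0560) every KO library was above every WT library, as in 3.68% of all genes tested.

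The RNA that the members assemble on was measured as well. The small-subunit RNA mt-Rnr1 was at 1790.0, 1076.9 and 1798.4 CPM in WT and at 1412.4, 1049.2 and 1242.7 CPM in KO (log2 difference -0.33 ± 0.22 SE, edgeR, unadjusted p = 0.173). The large-subunit RNA mt-Rnr2 was at 6135.0, 5345.0 and 6814.8 CPM in WT and at 6675.7, 5305.0 and 6792.6 CPM in KO (0.04 ± 0.14 SE, unadjusted p = 0.793). The genotypes overlapped for both, and both were lowest in replicate 2 of each genotype, as the members were. All 13 mitochondrial mRNAs had a higher mean in KO, with a median of 0.14 log2 and 0 at an unadjusted p under 0.05. The smallest of these differences was 0.0004, for mt-Co1. The mean log2(CPM + 0.5) of the 13 was 9.63, 9.41 and 9.23 in WT and 9.57, 9.55 and 9.62 in KO. WT replicate 1 thus lay above every KO library, and WT replicate 3, the highest library for the members, was the lowest here. These genes are read from long shared transcripts and do not count as separate evidence. The cytosolic ribosomal proteins had a median of 0.03 with 18 of 82 lower, and the nuclear respiratory chain subunits a median of -0.04 with 48 of 79 lower, beside -0.03 and 46 of 78 for the mitochondrial ribosomal proteins.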

How the data were processed

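Raw read counts per gene were deposited, with a file for each library. They were made by the authors with bcl2fastq 2.19.0.316, the aligner STAR 2.3 and the counter featureCounts on build mm10, per the submitters' processing notes. No source used here gives strand use, the treatment of reads with several places or the annotation release. Libraries were made with the SMARTer ultra-low-input and NEBNext ChIP-Seq kits from single reads of 50 bases, per the labels, which name no molecular identifiers, so PCR copies count as reads.

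Members and lists were chosen with earlier results of these data known. Symbols, positions, types and exon overlaps came from GENCODE M21 (GRCm38). Of 53379 identifiers, 53274 matched without their version, and 33 members overlap exons of another gene. The 6 libraries (3 WT, 3 KO) were compared with edgeR 4.0.16 in R 4.3.3: filterByExpr, TMM, robust quasi-likelihood fit with genotype only, two-sided F test, Benjamini-Hochberg over all 20475 genes tested, threshold 0.05. Differences are KO minus WT, CPM use TMM library sizes, and "lower" or "higher" without a p refers to means. The spread between libraries was wide (common dispersion 0.260, a coefficient of variation of 51.0%). The scripts were tested on simulated data. Divergent starts were those of the principal transcripts in GENCODE, and motif windows came from RefSeq.

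Genes named were those with an unadjusted p under 0.05, the 6 highest and 6 lowest log2 differences among members without overlap, the 4 highest and 2 lowest per kilobase in each subunit, and members fixed for their place in the ribosome. Partners of divergent members, and pseudogenes or overlapping genes, were named after their values were seen. Alternatives were DESeq2 1.42.0 (genes with 10 or more counts in all), limma-voom 3.58.1, RLE and upper-quartile factors, no filter, 1 CPM in 3 libraries, a replicate block, a term for the number that the names of the tables share, each library left out, and overlapping members left out.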

Additional observations from a re-analysis of the deposited data

How the results depend on the processing

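The count of members past an adjusted p of 0.05 was 0 under every alternative run, as was that of all genes except with DESeq2, which called 46. The labels do not say whether the replicate numbers pair the libraries. Deviations from the genotype means correlated at -0.09, 0.19 and 0.04 in same-numbered libraries, and at -0.18 to 0.13 in the other pairs. Not every library correlated best with its own number. These values cannot decide on pairing, because deviations from a mean of 3 libraries are tied to each other. With the replicate block the calls stayed at 0, the median of the members was -0.03 and 46 were lower in KO. Members at an unadjusted p under 0.05 were 3 in the main edgeR fit, beside 590 of all 20475 genes. They were 1 with the replicate block (712 of all genes) and 6 with sets A and B as a term (933). They were 4 with DESeq2 (1096 of 26408 genes), limma-voom (740) and RLE factors (590). With 1 library left out they were 0 to 3, beside 556 to 1125 of all genes. Leaving out 1 library at a time, members lower in KO ranged from 29 (without WT replicate 3) to 52 (without KO replicate 1). Their median ranged from -0.08 to 0.05. Members with no overlap, which fewer libraries make easier, ranged from 14 to 18. The share of all genes without overlap was not computed for these settings, so nothing stands beside that last range. Among the 45 members that overlap no other gene, 27 were lower. With the number in the names of the tables (sets A and B) as a term, 56 were lower and the median was -0.07. For 38 named genes under 14 settings, 493 of 532 values kept their direction and 1, Junb with DESeq2, passed the threshold.

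All reversals were of log2 differences close to 0 or with intervals across it, and the cause was not tested. With the same term, Mrpl12 was at -0.0136, Mrpl33 at -0.0238, Mrpl42 at -0.0391, Mrps33 at -0.0743 and mt-Rnr2 at -0.0654. Mrps33 was at -0.0022 with limma-voom, -0.0002 with no filter and -0.0013 with the replicate block. With each library left out in turn, the log2 difference ranged from -0.11 to 0.23 for Mrpl10, -0.0418 to 0.16 for Mrpl12, -0.0701 to 0.0898 for Mrpl18, -0.0358 to 0.25 for Mrpl33, -0.0763 to 0.22 for Mrpl42, -0.18 to 0.11 for Mrpl45 and -0.30 to 0.0511 for Mrpl52. It ranged from -0.54 to 0.0219 for Mrps12, -0.18 to 0.0651 for Mrps18a, -0.19 to 0.0509 for Mrps18c, -0.0685 to 0.048 for Mrps21, -0.39 to 0.16 for Mrps22 and -0.57 to 0.0271 for Mrps26. It ranged from -0.16 to 0.27 for Mrps27, -0.10 to 0.0897 for Mrps33, -0.45 to 0.0152 for Mrps34 and -0.0496 to 0.14 for mt-Rnr2.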
